A study of Mus musculus with 12 samples.

Results

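The proteasome genes of mouse pancreatic macrophages were followed from normal tissue into tumor. Genes were taken by name: every gene whose array name begins with Psma, Psmb, Psmc, Psmd, Psme, Psmf or Psmg and a number, which gave 49 of the 27274 genes named on the array. Of these, 47 were tested, among 16403 genes tested in all, and 31 of the 47 were constitutive subunits of the core particle and its regulatory cap. A set of 5 formed the inducible group, namely Psmb8, Psmb9, Psmb10, Psme1 and Psme2b. Macrophages, the phagocytes of tissues, had been isolated by flow sorting from pancreas tumors (6 arrays) and from normal pancreas (6 arrays). In each group 2 arrays carried the same sample name, were averaged and counted as 1 sample, so that 5 tumor samples were set against 5 normal samples. All samples were labelled as female C57/B6 mice of 4 to 5 months, with no genotype given. The series names wild-type, KPC and FLT3-CRE/LSL-YFP mice as sources, where KPC stands for a mouse model of pancreatic cancer, while the treatment protocol speaks of tumor implantation. Which animals or which tumor model gave a sample is not stated in the labels, nor is it stated that each sample name is an animal of its own. The p-values therefore reflect how far these samples scatter, and part of that scatter may be technical.

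The proteasome is the barrel-shaped protease that degrades proteins marked with ubiquitin. Its core is built of alpha and beta rings, with the protease sites on the beta subunits Psmb5, Psmb6 and Psmb7, and a 19S cap of ATPases and other subunits recognises, unfolds and feeds in the substrate. In immune cells, and in other cells exposed to interferon gamma, Psmb8, Psmb9 and Psmb10 take the places of Psmb5, Psmb6 and Psmb7 in newly built cores, called immunoproteasomes, which favour peptides that MHC class I molecules present. PA28, a ring of Psme1 and Psme2, is an alternative, interferon-inducible activator that opens the core.

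The inducible genes were read through probes of 60 bases, and a value stands for whichever transcripts its probe matches. The Psmb8 probe lay at chr17:34337771-34337830 on the plus strand and the Psmb9 probe at chr17:34319174-34319233 on the minus strand of mm9, and the array annotation gives no exon or intron. No probe was named Psme2. The gene name Psme2b stood on 3 probes of chromosome 11, of which 2, including the brightest, also list a Psme2 transcript, so signal from Psme2b and from Psme2 could not be told apart there. The third, at chr11:48759630-48759689 on the minus strand, does not list that Psme2 transcript. It is called the Psme2b-only probe here and is shown beside the probes of the paired catalytic subunits for that reason. Whether it lists other transcripts was not checked.
Psmb8 probe: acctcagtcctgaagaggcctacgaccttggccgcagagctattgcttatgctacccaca
Psmb9 probe: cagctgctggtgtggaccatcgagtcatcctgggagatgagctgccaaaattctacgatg
Psme2b-only probe: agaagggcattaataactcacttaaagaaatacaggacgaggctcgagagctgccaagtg

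Promoter sequences of RefSeq on GRCm38.p6, each 250 bases before to 50 bases after a transcription start, were searched on both strands for 3 motifs (no matches of different motifs overlapped in a member's promoter). These were the core of the interferon-stimulated response element (GAAA, any 2 bases, GAAA), the interferon gamma activated site (TTCNNNGAA) and the antioxidant element (TGACNNNGC), whose core is shared by factors of the Nfe2l1 and Nfe2l2 kind that drive proteasome genes. Among all 32851 promoters the motifs stood in 3.44%, 8.30% and 12.4%. The 5 inducible genes, counted with Psme2 and without Psme2b, had 6 promoters in the table. The Psmb8 promoter held the interferon gamma activated site at position -97, and the Psme1 promoter held the interferon-stimulated core at position 10 on the minus strand. The 27 promoters of 25 constitutive subunits held the antioxidant element in 4, among them Psmb5 at position -47 and Psmb6 at position -9. They held the interferon-stimulated core in 2 and the interferon gamma activated site in 1. A match is only a run of letters and no evidence of binding. The promoter windows of Psmb8 (chr17:34197945-34198244, plus strand) and Psme1 (chr14:55578244-55578543, plus strand) are shown with the match in capitals. The Psmb9 window (chr17:34187281-34187580, minus strand) is shown because Tap1, a subunit of the peptide transporter, starts from the opposite strand of the same stretch, in a window from 34187306 to 34187605 of chromosome 17, and it held none of the 3 motifs.
Psmb8 promoter: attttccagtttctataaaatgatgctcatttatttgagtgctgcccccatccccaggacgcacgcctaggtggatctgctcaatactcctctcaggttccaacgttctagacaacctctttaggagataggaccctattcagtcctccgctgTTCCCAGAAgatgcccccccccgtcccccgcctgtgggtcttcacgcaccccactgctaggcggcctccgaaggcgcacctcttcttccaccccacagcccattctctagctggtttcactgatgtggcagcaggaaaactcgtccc
Psme1 promoter: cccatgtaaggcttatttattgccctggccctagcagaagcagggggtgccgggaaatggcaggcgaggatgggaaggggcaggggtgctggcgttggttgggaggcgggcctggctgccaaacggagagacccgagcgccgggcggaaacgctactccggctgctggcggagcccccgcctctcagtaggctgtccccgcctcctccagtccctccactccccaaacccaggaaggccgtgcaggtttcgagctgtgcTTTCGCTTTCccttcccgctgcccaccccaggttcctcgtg
Psmb9 promoter: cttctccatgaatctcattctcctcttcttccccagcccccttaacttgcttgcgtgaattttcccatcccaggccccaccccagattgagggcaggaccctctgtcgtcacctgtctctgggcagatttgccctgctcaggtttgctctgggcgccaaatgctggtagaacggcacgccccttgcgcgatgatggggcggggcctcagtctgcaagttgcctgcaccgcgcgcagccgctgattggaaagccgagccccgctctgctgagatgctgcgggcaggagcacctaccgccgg

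Levels below are log2 processed signals minus the 75th percentile of their array, so that a level of 0 equals that percentile. Levels, and differences or means over several probes, are compared between samples. A difference between probes is not the amount of any RNA relative to another. The 75th percentile itself was 1091 to 1398 intensity units on tumor arrays and 398.4 to 1547 on normal arrays, and 39.31% to 58.83% of probes were well above background per array. All 10 macrophage markers were well above background on every array, with a summed signal of 0.406% to 0.472% of the total in tumor samples and 0.393% to 0.509% in normal samples. Of 11 acinar markers, 10 were lower in tumor past the threshold, and their sum was 0.00473% to 0.139% in tumor samples against 0.350% to 2.09% in normal samples. Neutrophil markers summed to 0.000577% to 0.00963% in tumor samples and 0.000296% to 0.000903% in normal samples, with 1 of 5 higher past the threshold. Islet markers summed to 0.00432% to 0.00708% in tumor samples and 0.0114% to 0.255% in normal samples, with 4 of 5 lower at an unadjusted p under 0.05 and 0 past the threshold. Dendritic cell markers summed to 0.0014% to 0.0136% in tumor samples and 0.000847% to 0.00359% in normal samples, with 0 of 3 past the threshold. The part of other cells' RNA in the proteasome values was not tested, and in bulk samples fewer cells of a type cannot be told apart from less RNA per cell.

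No proteasome gene differed between tumor and normal macrophages at an adjusted p under 0.05 (limma with Benjamini-Hochberg adjustment over all 16403 genes). The count was 0 of 47 in either direction, against 0.829% of all genes tested (0.317% higher and 0.512% lower in tumor). At an unadjusted p under 0.05 there were 3 of 47, against 12.9% of all genes (2 higher in tumor, against 6.69%, and 1 lower, against 6.25%), and 0 members had groups that did not overlap, against 1.77% of all genes for higher and 1.66% for lower in tumor. Of the members' differences, 35 of 47 (74.47%) lay above 0, with a median log2 difference of 0.19, where 49.74% of all genes lay above 0 around a median of -0.0031. The arrays lay on 3 slides, and that count was 36 within slide 1, 19 within slide 2 and 33 within slide 3, and 29 with 12 arrays as separate samples, so the majority did not hold on slide 2. Of the 47 intervals (95%), 33 lay within a change of 1 log2 unit, that is 2-fold, in either direction, so for these genes differences below that size are not shown to be absent. The members were measured with a median standard error of 0.239, against 0.356 over all genes, and the smallest log2 difference called among all genes was 1.01 in size.

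**Figure D1:**
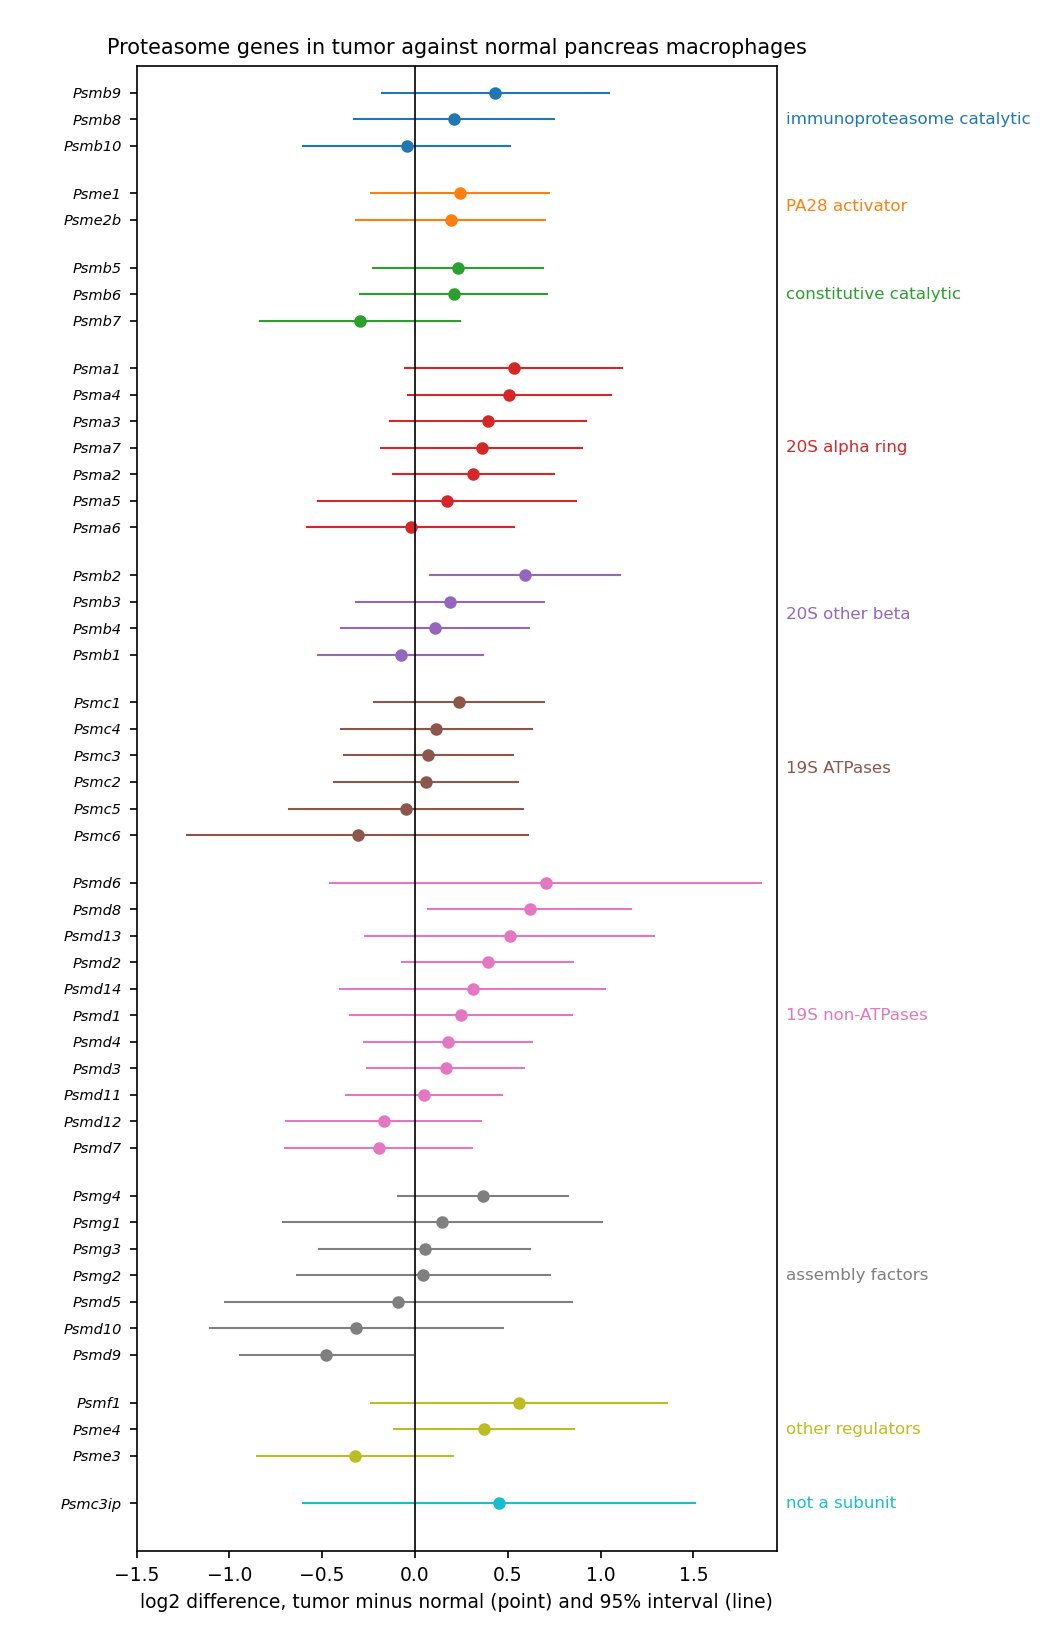
Log2 difference of tumor minus normal macrophages (horizontal axis) for the 47 proteasome genes tested, grouped by role. Points are limma estimates from 5 samples a group and lines their 95% intervals; 35 points lie right of 0, and only the intervals of Psmb2, Psmd8 and Psmd9 leave out 0, before adjustment.

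The catalytic subunits of the immunoproteasome were well above background on all 12 arrays, and none of them separated tumor from normal samples. Psmb8, which replaces the chymotrypsin-like subunit, had levels of 4.23, 3.76, 3.39, 3.42 and 3.81 in tumor replicates 1, 2, 3, 4 with 6, and 5, against 3.55, 3.60, 3.95, 3.08 and 3.36 in normal replicates 1, 2 with 3, 4, 5 and 6. The groups overlapped, with tumor replicate 1 above all others. The difference was 0.21 ± 0.24 (SE), with an interval from -0.33 to 0.75 and an adjusted p of 0.748 (limma).

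Psmb9, the inducible counterpart of the caspase-like subunit, stood at 3.94, 3.10, 3.24, 2.87 and 3.64 in tumor samples, against 3.13, 3.35, 3.10, 2.48 and 2.56 in normal samples, in the same order of replicates. Tumor replicates 1 and 5 lay above every normal sample, and normal replicates 5 and 6 below every tumor sample. Its difference of 0.43 ± 0.28 (SE; interval -0.18 to 1.04; limma adjusted p 0.541) was the largest of the inducible group. Psmb10, the inducible trypsin-like subunit, had 4.38, 4.23, 3.92, 3.81 and 4.07 in tumor samples, against 4.34, 4.73, 4.12, 3.82 and 3.62 in normal samples. Here the highest and the lowest of the 10 samples were both normal ones, and the difference was -0.05 ± 0.25 (SE; interval -0.60 to 0.51; limma adjusted p 0.954). Its sign turned in 7 of 25 alternative settings.

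The PA28 activator gave the same picture. Psme1, its alpha subunit, had levels of 3.46, 2.84, 2.89, 3.20 and 3.65 in tumor samples, against 3.14, 2.89, 2.96, 2.92 and 2.92 in normal samples. The tumor samples were spread on both sides of a narrow normal range, with an SD of 0.350 in tumor and 0.0998 in normal samples. The difference was 0.24 ± 0.22 (SE; interval -0.24 to 0.72; limma adjusted p 0.669). The brightest Psme2b probe, which shares its transcripts with the beta subunit Psme2, had 5.30, 4.98, 4.71, 4.85 and 5.10 in tumor samples, against 4.82, 5.16, 5.06, 4.64 and 4.29 in normal samples, with overlapping groups. Its difference was 0.19 ± 0.23 (SE; interval -0.32 to 0.70; limma adjusted p 0.755). The other probe that lists Psme2 differed by 0.28, and the Psme2b-only probe by -0.11, with means of -0.88 ± 0.41 in tumor and -0.77 ± 0.30 in normal samples (SD, n = 5 each).

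The constitutive catalytic subunits did not pass the test either. Psmb5, the chymotrypsin-like subunit, had 4.89, 4.82, 4.39, 4.31 and 4.54 in tumor samples, against 4.44, 4.61, 4.38, 4.26 and 4.09 in normal samples. The difference of Psmb5 was 0.23 ± 0.21 (SE; interval -0.22 to 0.69; limma adjusted p 0.666). Psmb6, the caspase-like subunit, had 4.65, 4.73, 4.64, 3.94 and 4.74 in tumor samples, against 4.60, 4.27, 4.51, 4.24 and 4.04 in normal samples. In Psmb6, 4 tumor samples lay above every normal sample and the sample of tumor replicates 4 and 6 below every normal sample, which left a difference of 0.21 ± 0.23 (SE; interval -0.29 to 0.71; limma adjusted p 0.732). Psmb7, the trypsin-like subunit, had 1.43, 1.45, 0.91, 0.66 and 0.48 in tumor samples, against 1.37, 1.23, 1.27, 1.47 and 1.06 in normal samples. Tumor replicates 3, 4 with 6, and 5 lay below every normal sample, and the difference was -0.29 ± 0.24 (SE; interval -0.83 to 0.25; limma adjusted p 0.642).

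**Figure D2:**
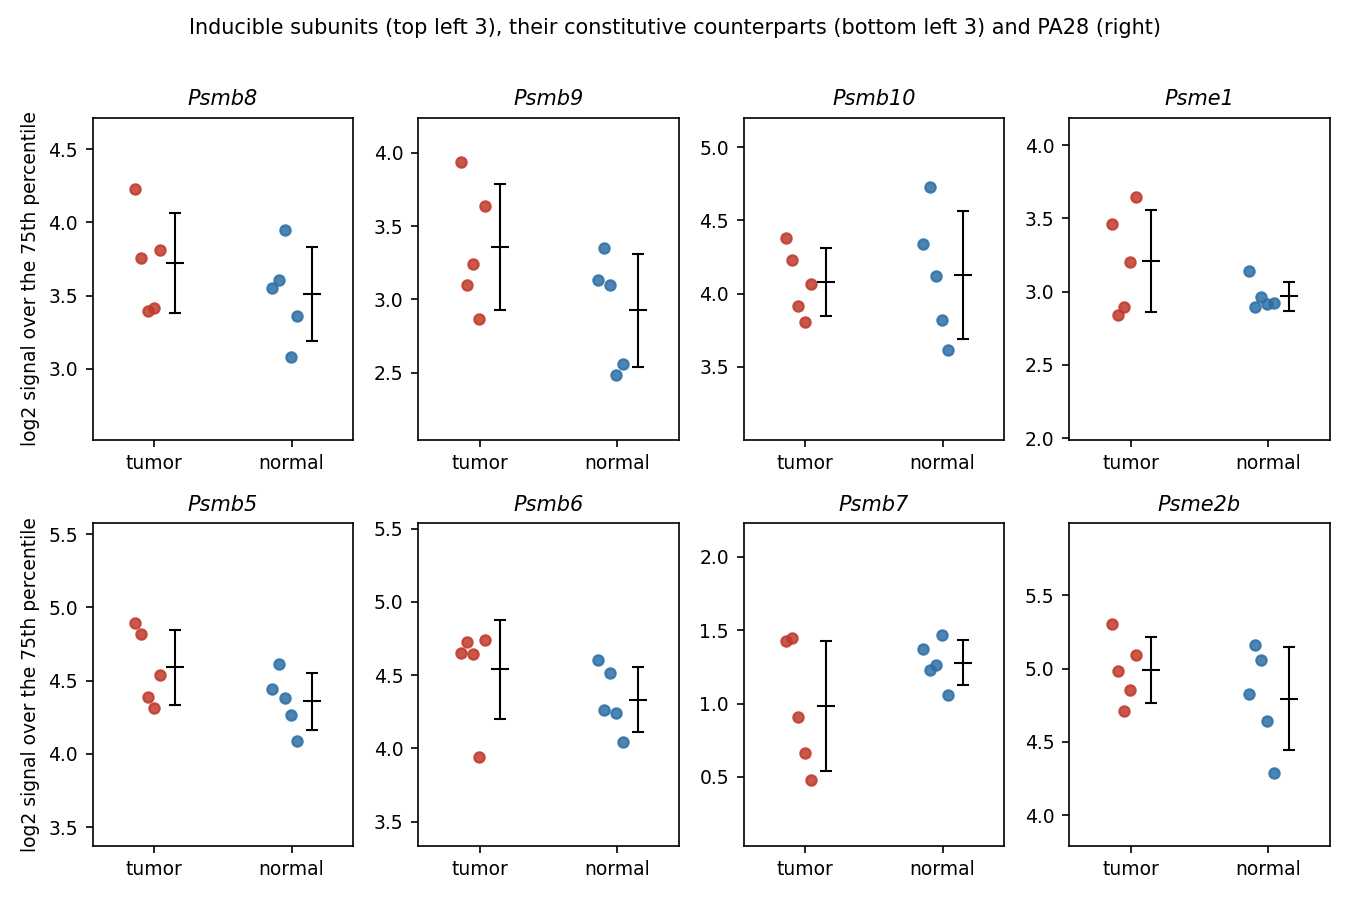
Log2 signal relative to the 75th percentile of the array (vertical axes, each of the same span) of 8 genes in 5 tumor samples (red, left) and 5 normal samples (blue, right). Points are samples and black bars the mean ± SD; tumor and normal points overlap in every panel, and in Psmb6 a lone tumor sample lies at 3.94.

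Whether the RNA of inducible relative to constitutive subunits differed was asked within each sample, where a shift shared by the array cancels. The exchange of subunits in the particle itself was not measured. The log2 difference Psmb8 minus Psmb5 averaged -0.87 ± 0.17 in tumor samples and -0.85 ± 0.28 in normal samples (SD, n = 5 each). The groups differed by -0.02 (interval -0.36 to 0.32; exact permutation test over 252 assignments, two-sided, p 0.897). Psmb9 minus Psmb6 averaged -1.18 ± 0.35 in tumor samples and -1.41 ± 0.31 in normal samples, a difference of 0.22 (interval -0.25 to 0.70; exact permutation p 0.310, adjusted over the 3 pairs 0.476). Psmb10 minus Psmb7 averaged 3.10 ± 0.31 in tumor samples and 2.85 ± 0.44 in normal samples, a difference of 0.25 (interval -0.30 to 0.80; exact permutation p 0.317, adjusted 0.476). In the last 2 pairs 4 of 5 tumor samples lay above the normal mean, and for Psmb8 and Psmb5 2 of 5 did. The smallest p that the test can give with 5 against 5 is 0.00794. The intervals (95%) come from a t distribution with the pooled variance of both groups, not from the permutation test. The intervals thus reached up to 0.32, 0.70 and 0.80 log2 units in favour of the inducible subunit, and do not show that the pairs moved alike.

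Over the whole group, the mean of the 5 inducible genes was 4.26, 3.78, 3.63, 3.63 and 4.05 in tumor samples, against 3.80, 3.95, 3.84, 3.39 and 3.35 in normal samples. The mean of the 31 constitutive subunits was 2.16, 2.06, 2.08, 1.56 and 2.08 in tumor samples, against 1.98, 1.74, 1.85, 1.73 and 1.64 in normal samples. The group means differed by 0.21 for the inducible genes and by 0.20 for the constitutive subunits, and the inducible minus constitutive value averaged 1.88 ± 0.24 in tumor samples and 1.88 ± 0.22 in normal samples (SD, n = 5 each), a difference of 0.0080. Within slides 1, 2 and 3 that difference was -0.11, -0.27 and 0.33, so it did not keep its sign. No test was made on these means. By gene, 4 of 5 inducible genes had a positive difference with a median of 0.21, and 24 of 31 constitutive subunits (77.42%) with a median of 0.19.

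**Figure D3:**
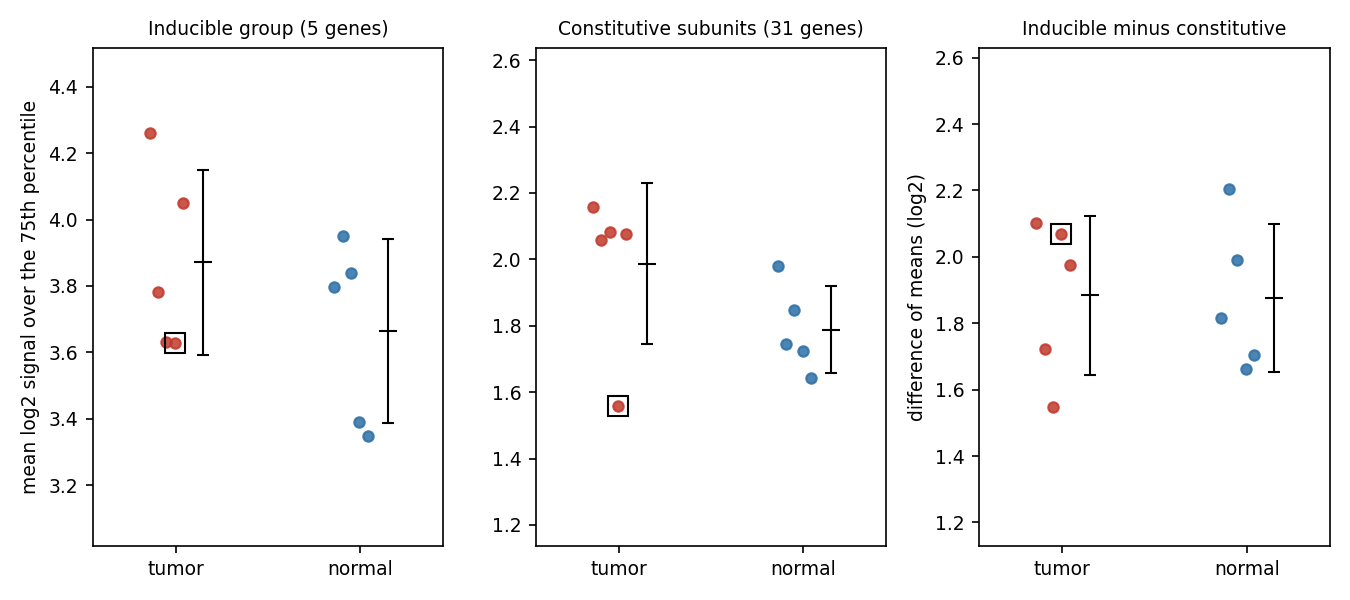
Per-sample means of the 5 inducible genes (left), of the 31 constitutive subunits (middle) and their difference (right), as log2 signal relative to the 75th percentile of the array, in tumor (red) and normal (blue) samples. Black bars are mean ± SD over 5 samples and the square marks the sample of tumor replicates 4 and 6, at 1.56 for the constitutive mean while the other tumor samples lie at 2.06 to 2.16.

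The constitutive mean split the tumor samples. In 4 tumor samples it lay between 2.06 and 2.16, above all normal samples (1.64 to 1.98), and in the sample of tumor replicates 4 and 6 it lay at 1.56, below all normal samples. That sample was the lowest of the 5 tumor samples in 24 of 31 constitutive subunits and the highest in 0, whereas over all genes it was the lowest in 24.18% and the highest in 23.92%. Its median deviation from the tumor mean was -0.40 in the constitutive subunits and 0.04 over all genes. Both of its arrays, on different slides, showed the low value, with constitutive means of 1.62 and 1.5. Core and cap subunits shared it: the constitutive core mean was 2.04 there and 2.49 to 2.68 in the other tumor samples, and the constitutive 19S mean was 1.16 there and 1.64 to 1.75 in the others. In the inducible group it was the lowest tumor sample in 2 of 5 genes, with a median deviation of -0.27, and its inducible mean of 3.63 was the lowest tumor value, next to tumor replicate 3 at 3.63. Its macrophage markers summed to 0.429% of signal and its acinar markers to 0.0763%, both within the range of the other tumor samples. It was the lowest tumor sample for epithelial markers (0.0117%, with 0.0139% to 0.0310% in the others) and for fibroblast markers (0.0208%, with 0.0230% to 0.0522% in the others). The part of these lists in its low constitutive mean was not tested.

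The sample of tumor replicates 4 and 6 was singled out for its low values, so a rise without it followed from that choice. Without that sample 40 of 47 members had a positive difference and 0 passed the adjusted threshold. At an unadjusted p under 0.05 (limma) there were 4 of 47 members, against 13.95% of all genes. The constitutive median was then 0.26 and the inducible median 0.24. Psmb6 then differed by 0.36 (limma adjusted p 0.455), against 0.21 with it.

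**Figure D4:**
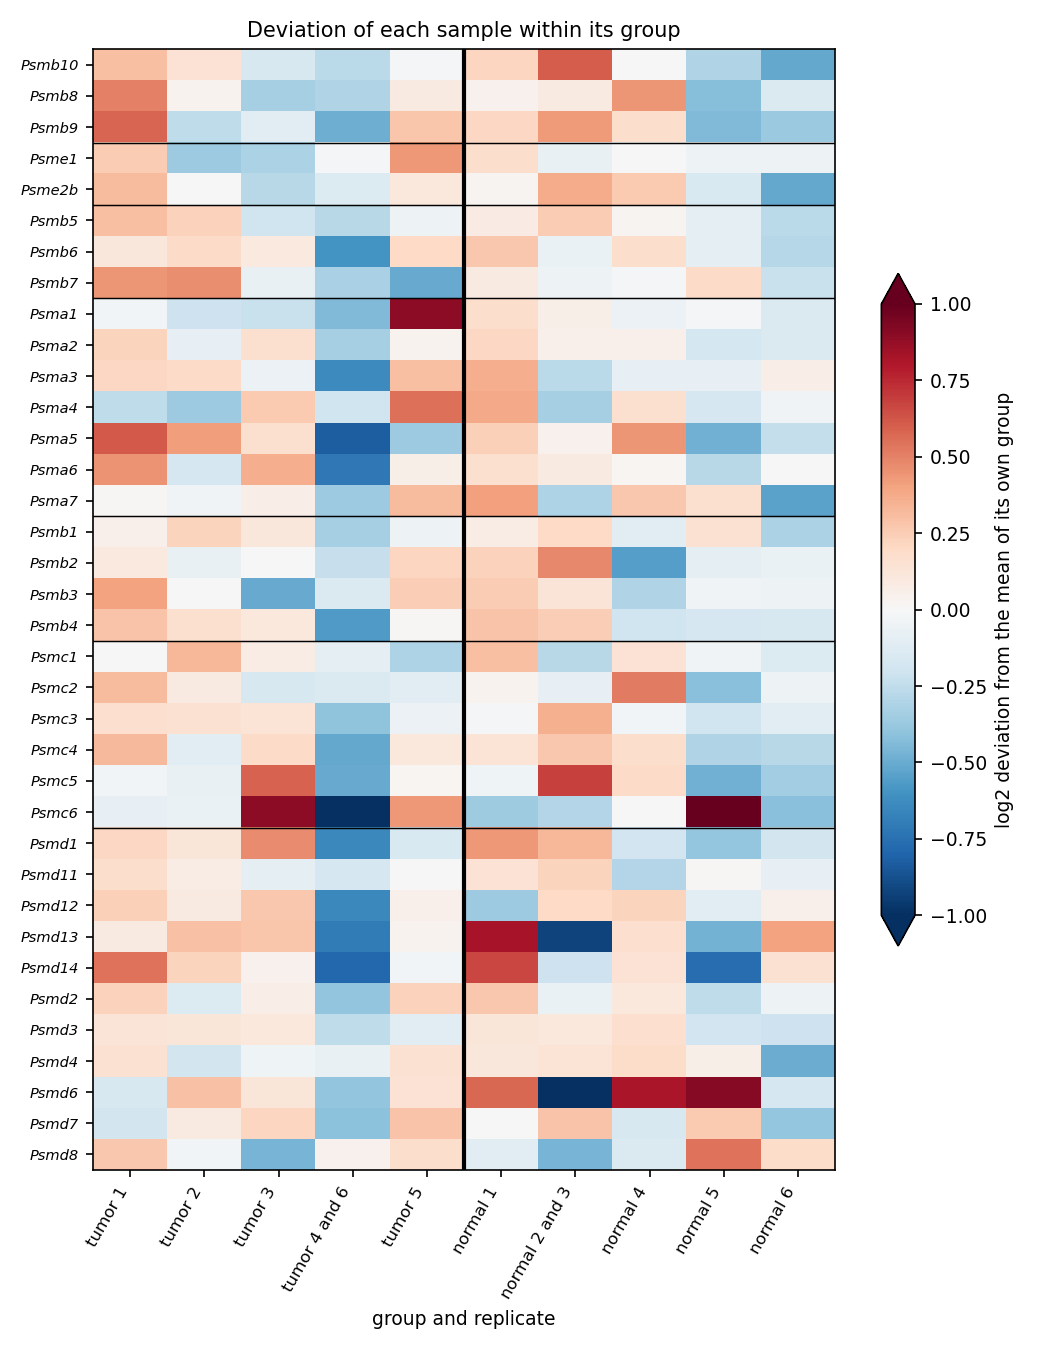
Deviation of each sample from the mean of its own group (colour, log2, capped at 1 in either direction) for the inducible genes at the top and the 31 constitutive subunits below, with tumor samples left and normal samples right of the black line. The column of tumor replicates 4 and 6 is below the group mean in most constitutive subunits (median -0.40). Tumor replicate 1 is the highest tumor sample in 4 of 5 inducible genes, against 19.16% of all genes.

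The inducible and the constitutive genes shared some of their extreme samples, but not all. In the inducible genes the highest normal sample was most often that of replicates 2 and 3 (3 of 5, against 28.74% of all genes). In the constitutive subunits it was most often normal replicate 1 (14 of 31, against 19.77% of all genes). Over all genes the sample of normal replicates 2 and 3 was also the lowest normal sample in 26.53%. Tumor replicate 1 was the highest tumor sample in 4 of the 5 inducible genes and in 14 of the 31 constitutive subunits. Over all genes tumor replicate 1 was the highest in 19.16%. Normal replicates 5 and 6 were each the lowest normal sample in 2 of the 5 and in 10 of the 31. Over all genes they were the lowest in 16.71% and 20.62%. They had the lowest normal means of both groups of genes. Both of these normal samples came from slide 3, where the median difference of the inducible genes was 0.47. On slide 1 it was 0.19, and on slide 2, which held tumor replicates 3 and 4 and normal replicates 3 and 4, it was -0.27. Each slide held 2 arrays of each group and passed 0 genes of the whole array, so these within-slide values are descriptions. With slide in the model 0 members passed, and the lowest adjusted p was 0.244 (Psmd8).

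Among the remaining core subunits the alpha ring, which gates the entry of substrates, had positive differences in 6 of 7 genes with a median of 0.36. Psma4 had 1.40, 1.29, 1.91, 1.45 and 2.20 in tumor samples, against 1.52, 0.81, 1.30, 0.97 and 1.11 in normal samples. Only normal replicate 1 and normal replicate 4 reached into the tumor range, and the difference was 0.51 ± 0.25 (SE; limma adjusted p 0.422). Psma1 had 0.15, -0.03, -0.05, -0.27 and 1.07 in tumor samples, against -0.19, -0.31, -0.42, -0.39 and -0.51 in normal samples. Tumor replicate 5 stood apart, and the difference of 0.53 ± 0.26 (SE; limma adjusted p 0.432) was 0.31 at the lowest when single samples were left out. The 4 other beta subunits had a median of 0.15. Psmb2, a structural beta subunit, had 2.88, 2.71, 2.78, 2.55 and 2.99 in tumor samples, against 2.42, 2.67, 1.64, 2.10 and 2.13 in normal samples. Only the sample of normal replicates 2 and 3 reached into the tumor range. Psmb2 had the smallest p of all members, with a difference of 0.59 ± 0.23 (SE; interval 0.08 to 1.1; unadjusted p 0.0275, limma adjusted p 0.318).

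In the 19S cap the 6 ATPases had a median difference of 0.07 with 4 positive, and the 11 subunits without ATPase activity a median of 0.25 with 9 positive. Psmd8, a subunit of the lid, had 2.02, 1.71, 1.28, 1.79 and 1.93 in tumor samples, against 1.02, 0.66, 0.98, 1.67 and 1.31 in normal samples. Only tumor replicate 3 lay within the normal range, and the difference was 0.62 ± 0.25 (SE; interval 0.07 to 1.16; unadjusted p 0.0300, limma adjusted p 0.327). Within slides 1, 2 and 3 the difference of Psmd8 was 1.04, 0.69 and 0.39. Psmd2, a scaffold of the base that docks ubiquitin receptors, had 2.88, 2.51, 2.71, 2.25 and 2.88 in tumor samples, against 2.52, 2.18, 2.36, 2.0 and 2.21 in normal samples. Its difference was 0.39 ± 0.21 (SE; limma adjusted p 0.464), and normal replicates 1 and 4 lay above the sample of tumor replicates 4 and 6.

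Psmd6, another lid subunit, had the largest estimate, 0.70 ± 0.53 (SE; interval -0.46 to 1.87; limma adjusted p 0.603). It rested on the sample of normal replicates 2 and 3 at -4.27, while the other normal samples had -1.56, -1.32, -1.23 and -2.30 and the tumor samples -1.83 to -1.14. The probe was well above background on 6 tumor and 4 normal arrays, and without that normal sample the difference was 0.17. Psmc6, an ATPase with a dim probe, had -2.85, -2.83, -1.87, -3.95 and -2.33 in tumor samples, against -2.81, -2.75, -2.46, -1.39 and -2.87 in normal samples. Its difference of -0.31 ± 0.42 (SE; limma adjusted p 0.784) was smaller than the gap of 1.85 between the 2 arrays of tumor replicates 4 and 6. The typical gap between arrays of the same name was far smaller, with medians over the members of 0.12 for the tumor pair and 0.09 for the normal pair, beside a median SD between samples of 0.317.

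The assembly factors, chaperones that are left behind or released as the particle matures, were the class with the lowest median, 0.04, and 4 of 7 positive. Psmd9, a chaperone of the base, had 0.11, -0.07, -0.40, -0.05 and -0.16 in tumor samples, against 0.23, 0.62, 0.00087, 0.67 and 0.28 in normal samples. Only normal replicate 4 lay within the tumor range, and the difference was -0.48 ± 0.21 (SE; interval -0.94 to -0.01; unadjusted p 0.0449, limma adjusted p 0.369). Its sign was the same in all 25 alternative settings, between -0.62 and -0.38, but these settings reuse the same arrays. The signs of Psme3 and Psmd6, among other members, did not turn either. Psmd10, a base chaperone also called gankyrin, differed by -0.32 ± 0.36 (SE; limma adjusted p 0.741), with 0.59 to 1.67 in tumor samples and 0.48 to 2.39 in normal samples. Psmg4, a chaperone of the alpha ring, differed by 0.37 ± 0.21 (SE; limma adjusted p 0.488), with 0.16 to 0.69 in tumor samples and -0.24 to 0.38 in normal samples.

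The other regulators of the core went in different directions without passing the test. Psme3, the nuclear PA28 gamma activator, had 3.56, 3.39, 3.89, 4.20 and 3.65 in tumor samples, against 3.62, 4.43, 4.24, 4.14 and 3.85 in normal samples, a difference of -0.32 ± 0.24 (SE; limma adjusted p 0.600). Psme4, the activator PA200, had 2.30, 2.52, 2.05, 2.20 and 1.85 in tumor samples, against 1.60, 1.72, 2.17, 2.04 and 1.55 in normal samples, a difference of 0.37 ± 0.22 (SE; limma adjusted p 0.509). Both overlapped between the groups. Psmf1, an inhibitor of the core in the test tube, differed by 0.56 ± 0.36 (SE; limma adjusted p 0.545), and by 0.27 without the sample of normal replicates 2 and 3, in which it was at -2.77. Psma8 and Psmb11, subunits of the testis and thymus proteasomes, were well above background on 0 of 12 arrays and were not tested. Psmc3ip matches the name rule but encodes a recombination protein, and its difference was 0.45 ± 0.48 (SE).

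Of the 10 members with several kept probes, 6 had differences of the same sign on all of them. The second Psmb5 probe differed by 0.37 beside 0.23, and the second Psma4 probe by 0.43 beside 0.51. For Psmd12 the probes disagreed, with 0.34 on the second probe and -0.17 on the brightest. Psmc1 (0.24 on the brightest and -0.03 on the second) and Psmc3 (0.07 and -0.03) disagreed too, as did the Psme2b probes given above.

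The genes that work with the proteasome were read from lists chosen for their pathway. Of 11 genes of MHC class I antigen processing 10 were tested, 0 passed the threshold and 7 were positive, with a median of 0.11. Nlrc5, the activator of MHC class I and immunoproteasome transcription, had 1.57, 1.04, 1.13, 1.19 and 1.39 in tumor samples, against 0.81, 0.59, 1.08, 0.58 and 0.73 in normal samples. Only normal replicate 4 reached the tumor range, and the difference was 0.51 ± 0.20 (SE; interval 0.06 to 0.95; unadjusted p 0.0285, limma adjusted p 0.322). Calr and Tapbp, of the peptide-loading complex, differed by 0.45 ± 0.25 and 0.34 ± 0.22 (SE; limma adjusted p 0.483 and 0.549). Tap1 differed by 0.25 ± 0.33 (SE; limma adjusted p 0.777); tumor replicate 1 was the highest sample for Tap1 as for Psmb9, whereas normal replicate 6, at -1.13, was the highest normal sample for Tap1 and, at 2.56, the second lowest for Psmb9.

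Of 20 interferon genes 18 were tested, 0 passed, 8 were positive and the median was -0.04. Socs1, an interferon-induced brake on cytokine receptors, differed by 0.79 ± 0.29 (SE; limma adjusted p 0.286). Cxcl9, a chemokine induced by interferon gamma, differed by -0.80 ± 0.35 (SE; limma adjusted p 0.364). Of 22 names of proteasome partners, among which Shfm1 and Sem1 are the same gene, 16 were tested, 0 passed and 13 were positive, with a median of 0.22. Ddi2, the protease that activates Nfe2l1, differed by 0.35 ± 0.24 (SE; limma adjusted p 0.564), and Uchl5, a deubiquitinase of the cap, by 0.64 ± 0.51 (SE; limma adjusted p 0.630).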

How the data were processed

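Red-channel scans of 12 one-color arrays were analysed. Per the labels' protocols, cDNA from total RNA was amplified with the Sigma-WTA2 kit before Cy5 labelling. Per the file headers, the authors' scanner intensity values come from Agilent Feature Extraction 11.5.1.1, whose processed signal is background-subtracted. A log2 table that the authors deposited equalled quantile-normalized log2 processed signals (lowest correlation 0.9999). Spots of a probe were averaged on the log2 scale, flagged spots left out, and the 75th percentile of each array subtracted. A probe was kept if 3 or more of the 6 arrays of either group had it well above background, and the probe with the highest mean processed signal stood for a gene. The array annotation uses mm9.

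Tumor was tested against normal by lmFit and eBayes of limma 3.58.1 (R 4.3.3), two-sided. P-values were adjusted by Benjamini-Hochberg across 16403 genes and called under 0.05. The fit was tested on simulated data with changes larger than any difference of the members. That test does not show that differences of the members' size would be found. Arrays on 3 slides, 2 of each group per slide, gave 5 samples a group, whose number limits the precision. Same-name arrays correlated at 0.992 or more, and other arrays of a group at 0.967 or less. Members and lists were chosen with earlier results of these data known. Named members are the 8 catalytic and PA28 genes, the 5 largest differences in each direction, the 8 smallest p, the members that failed the filter, and the 3 smallest p of each list, of which some are not reported here. Further members are named where probes disagree or share a transcript, chosen after their values were seen. Alternatives covered background correction, scaling, the authors' table, dim probes, same-name arrays, slide, probe choice, flags, variance model, threshold and leaving out each sample.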

Additional observations from a re-analysis of the deposited data

Results flagged for a closer look

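Of 58 sets of 5 sample values checked (21 named members and 8 within-sample means or differences in each group), 5 had a sample far from the others by Dixon's test at a gap of more than 0.71 of the range, and chance flags about 1 in 20 such sets. In the sample of tumor replicates 4 and 6, Psmb6 was at 3.94 where the other tumor samples lay at 4.64 to 4.74, a gap of 0.877 of the range. The constitutive mean of that sample was 1.56 beside 2.06 to 2.16 (gap 0.833), and its constitutive 19S mean was 1.16 beside 1.64 to 1.75 (gap 0.819). These 3 share a sample and in part the same genes. Psme1 was at 3.14 in normal replicate 1 and at 2.89 to 2.96 in the other normal samples (gap 0.714). Psmc6, on a dim probe, was at -1.39 in normal replicate 5 and at -2.87 to -2.46 in the other normal samples (gap 0.724).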

How the results depend on the processing

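Of the 47 members, 0 passed the threshold in the full fit and in each of 25 alternative settings, and the lowest adjusted p among them was 0.107 for Psmd8 with 12 arrays as separate samples. The count of all genes past the threshold was 136, and 217 with normexp, 460 with 12 arrays as separate samples, 235 with a trended robust variance, 267 at an adjusted p under 0.1, 2124 at an unadjusted p under 0.05 (with 3 members), 0 within each slide, and 63 to 197 with single samples left out. Within slide 2 the inducible median was -0.27, the constitutive median -0.044 and their difference of means -0.27, and that difference was 0.33 within slide 3. The contrast Psmb8 minus Psmb5 turned sign to 0.024 with normexp, 0.00040 with 12 arrays, 0.044 within slide 1 and 0.12 within slide 3. Psmb9 minus Psmb6 was -0.040 within slide 1, and Psmb10 minus Psmb7 -0.37 within slide 1 and -0.048 within slide 2. With single samples left out, Psmb8 minus Psmb5 ranged from -0.11 to 0.081, Psmb10 from -0.17 to 0.11, the inducible median from 0.12 to 0.29 and the constitutive median from 0.14 to 0.26. Psmb10 turned to 0.14 with normexp, 0.0026 with quantile scaling, 0.0023 with the authors' table and 0.17 within slide 3. Normexp also turned Uchl5 (-0.046), and slide 3 turned Uchl5 (-0.061). Slide 1 turned Psmb7 (0.11), Psmd10 (0.059), Psmc6 (0.14) and Calr (-0.012), and slide 2 turned Psmb8 (-0.28), Psmb9 (-0.084), Psme2b (-0.27), Psmb5 (-0.11) and Psmb6 (-0.15). The cause was not tested. No paired analysis was possible because the titles give sample names and no numbers shared between the groups. Within slides, 2 arrays against 2 passed 0 genes by limma, while 9.669%, 9.59% and 5.786% of genes had an unadjusted p under 0.05. For 6 members dim on at least 1 array, signal near background limits the values.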

Other observations

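Neutrophil markers took 0.00937%, 0.00963%, 0.00452%, 0.00246% and 0.000577% of summed signal in tumor replicates 1, 2, 3, 4 with 6, and 5, whose inducible means were 4.26, 3.78, 3.63, 3.63 and 4.05. Dendritic cell markers took 0.0136%, 0.00388%, 0.0014%, 0.00575% and 0.0111% in the same samples. The neutrophil share was highest in tumor replicate 2, whose inducible mean was the middle value. The dendritic share was highest in tumor replicates 1 and 5, which had the highest inducible means. Among normal samples the dendritic share was highest in replicate 6 (0.00359%), which had the lowest inducible mean (3.35). The share was 0.0012% in normal replicates 2 and 3, which had the highest normal inducible mean (3.95). Normal replicates 1, 4 and 5 had dendritic shares of 0.0028%, 0.00085% and 0.0011%, with inducible means of 3.80, 3.84 and 3.39. Of the 3 dendritic markers tested, 1 was well above background on all 6 normal arrays, so the normal shares are limited by dim signal. The mean of the 18 interferon genes was 1.02, 0.39, 0.48, 0.54 and 1.1 in tumor replicates 1, 2, 3, 4 with 6, and 5, against 0.55, 0.62, 1.21, 0.08 and 0.41 in normal replicates 1, 2 with 3, 4, 5 and 6. Tumor replicates 1 and 5 were thus the highest tumor samples, and normal replicates 5 and 6 the lowest normal samples, in both the interferon mean and the inducible mean. The other extremes differed. The highest normal sample was replicate 4 for the interferon mean (1.21) and replicates 2 and 3 for the inducible mean (3.95). The lowest tumor sample was replicate 2 for the interferon mean (0.39) and replicates 4 and 6 for the inducible mean (3.63). These values share the array scaling and were not tested.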
